A study of Saccharomyces cerevisiae with 10 samples.

Results

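The 9 cyclin genes described here, CLN1, CLN2, CLN3, PCL1, PCL2, CLB5, CLB6, CLB1 and CLB2, were taken by name out of 6002 nuclear protein-coding genes of budding yeast, Saccharomyces cerevisiae, and all 9 were found in the gene table. Swc4 with a Myc tag (Swc4-13myc) was mapped on chromatin by immunoprecipitation with an antibody against c-Myc and sequencing (ChIP-seq), in cells grown at 30 °C to mid-log phase. Swc4 belongs both to SWR1, which exchanges H2A for H2A.Z in nucleosomes, and to NuA4, which acetylates histones. There were 10 samples in 5 groups of 2 repeats: wild type, yaf9Δ, eaf1Δ and swr1Δ, all with SWC4-13MYC, and a wild type with no tag. Yaf9 is a further subunit of both complexes, NuA4 is assembled on Eaf1, and Swr1 provides the ATPase activity of its complex. The data are 4 lists of peaks, each pooled from both repeats of 1 tagged group. A list therefore has no replicate spread, and no test was made between genotypes or between classes of cyclin. The untagged strain was not analysed here, so unspecific signal was not measured, and a gene "with a peak" is only one at which the authors' peak caller made a call. The labels name no arrest at a stage of the cell cycle, so each list averages over the stages of a growing culture.

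Cyclins are the regulatory subunits that switch on cyclin-dependent kinases, and budding yeast makes different ones at successive stages of the cycle. Cln3 acts first in G1 and starts the transcription program of the transcription factors SBF and MBF, which raises CLN1 and CLN2, the cyclins of budding and of commitment to division, and PCL1, a partner of the kinase Pho85. PCL2 encodes another G1 partner of Pho85. CLB5 and CLB6 encode the cyclins that fire replication origins in S phase. CLB1 and CLB2 encode the mitotic cyclins and are switched on in G2 and M by Mcm1 with forkhead factors. No genome or promoter sequence was used here, so the positions below are described by distance and not by motif.

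A peak was counted at a gene when at least 1 bp of it overlapped the gene body or the 500 bp upstream of the annotated start. By that rule 4 of the 9 cyclin genes had a peak in wild type, where 16.6% of all 6002 genes had one. In swr1Δ 6 of the 9 had a peak, with 26.3% of all genes. In yaf9Δ it was 7 of 9 beside 64.2% of all genes, and in eaf1Δ 5 of 9 beside 51.6%, so that the counts in these long lists lie near the background and say little about cyclins. The yaf9Δ and eaf1Δ lists held 4590 and 2937 peaks, against 1262 in swr1Δ and 625 in wild type. When each list was cut to its 625 most significant peaks, 4 cyclin genes were left in wild type (16.6% of all genes) and 5 in swr1Δ (14.2%). The shortened yaf9Δ and eaf1Δ lists held 4 each, beside 13.9% and 14.0% of all genes.

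By stage, peaks under this rule were found at G1 and S-phase cyclins and at no mitotic cyclin. Of the 5 G1 genes, 3 had a peak in wild type, 4 in swr1Δ, 5 in yaf9Δ and 4 in eaf1Δ. Of the 2 S-phase genes, 1 had a peak in wild type, 2 in swr1Δ, 2 in yaf9Δ and 1 in eaf1Δ. Of the 2 mitotic genes, 0 had a peak in any of the 4 lists. Over all genes the share with a peak was 16.6% in wild type, 26.3% in swr1Δ, 64.2% in yaf9Δ and 51.6% in eaf1Δ. With classes of 5, 2 and 2 genes these counts are a description, and the 0 of the mitotic genes in the mutant lists rested on the length of the window, as the values for CLB1 and CLB2 below show.

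CLN1, CLN2 and PCL1 were the cyclin genes with a peak in all 4 lists. Among all genes 543 (9.05%) had a peak in every list. The same 3 cyclin genes also had one in every list when only peaks of fold at least 2 were used, which 146 genes (2.43%) did, and when lists were cut to equal length, which 195 genes (3.25%) did. The trio depended on the window, however. With 250 bp upstream, or with summits counted in place of overlap, PCL1 was the only cyclin gene with one in all 4 lists. When 50% of the peak had to lie in the window, no cyclin gene had one in all 4. Fold here is the authors' ratio of the pileup, the number of fragments over the summit, to the local background of the peak caller. It is used below to rank peaks within a list and not to compare lists. The intervals are 95% Poisson intervals of the pileup and cover counting error only.

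**Figure D1:**
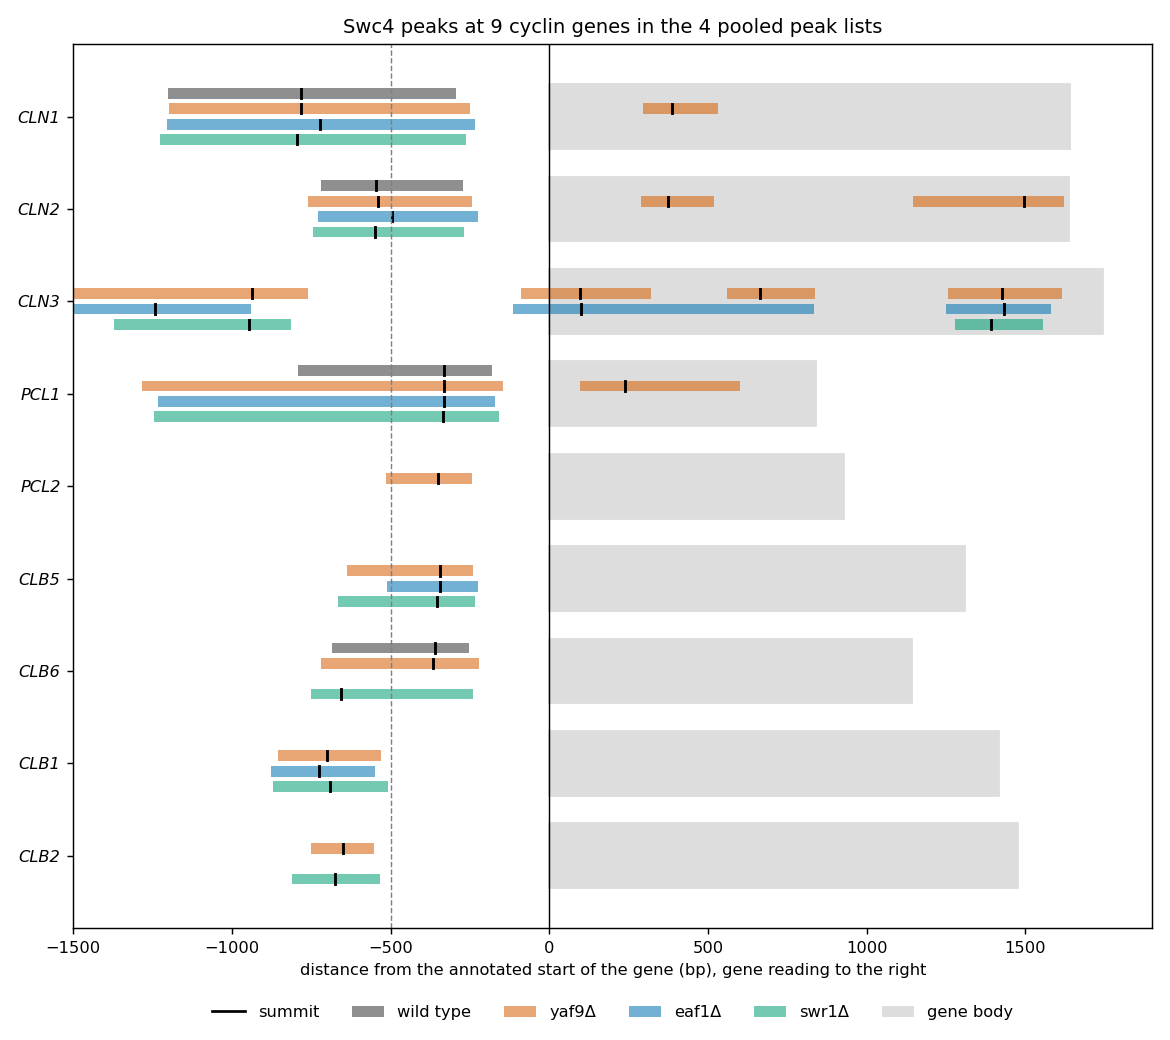
Position of every peak at the 9 cyclin genes, as distance in bp from the annotated start of the gene, with the gene reading to the right. Coloured bars are peaks of the wild type, yaf9Δ, eaf1Δ and swr1Δ lists, black marks are their summits, grey boxes are gene bodies and the dashed line marks 500 bp upstream; peaks whose summit lies beyond 1500 bp upstream are left out, and 2 bars at CLN3 run past the left edge. Summits upstream of CLN1, CLN2 and PCL1 spread over 71, 52 and 1 bp in the 4 lists. The median spread was 71.0 bp for wild-type peaks with a counterpart in every mutant list. Summits of CLB1 and CLB2 lie beyond the dashed line.

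PCL1 carried the peak whose summit moved least between lists. It lay 333 bp upstream of the start in wild type, yaf9Δ and eaf1Δ and 334 bp upstream in swr1Δ, a spread of 1 bp over the 4 lists. For the 323 wild-type peaks with a counterpart in all 3 mutants the median spread was 71.0 bp, and 21.0 bp at the lower quartile. In wild type the PCL1 peak (chromosome XIV, 87104–87715) had a fold of 2.50 (interval 2.26–2.76), from 387 fragments over a background of 154, and rank 93 of 625 by −log10 q. In yaf9Δ its fold was 6.12 (5.66–6.60) at rank 70 of 4590. In eaf1Δ it was 3.07 (2.79–3.38) at rank 79 of 2937. The swr1Δ peak had a fold of 5.77 (5.37–6.19), a −log10 q of 308 and rank 33 of 1262. PCL1 thus stood in the first 14.9% of the wild-type list and in the first 1.53%, 2.69% and 2.61% of the others. The mutant peaks spanned 1137 bp (yaf9Δ), 1063 bp (eaf1Δ) and 1087 bp (swr1Δ) and the wild-type peak 612 bp, and all 4 reached into RFC3, the gene of a replication factor C subunit that lies 656 bp upstream.

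CLN2 had the highest fold of the 9 genes in every list. In wild type its peak (chromosome XVI, 66886–67334) had a fold of 2.71 (2.38–3.07), from 243 fragments over 89.1, with rank 139. In yaf9Δ the fold was 8.5 (7.78–9.26), from 514 fragments over 59.6, with rank 66. That background equalled the lowest in the yaf9Δ list. In eaf1Δ it was 3.49 (3.12–3.90) with rank 104, and in the swr1Δ list 7.07 (6.49–7.68) with rank 49. The CLN2 interval lay above that of PCL1 in yaf9Δ and swr1Δ, while both overlapped in wild type and eaf1Δ. Rank by significance put PCL1 ahead of CLN2 in wild type, eaf1Δ and swr1Δ, and its pileup and local background were both higher than those of CLN2 in every list.

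The CLN2 peak sat midway between a divergent pair of genes. BBP1, the gene of a protein of the spindle pole body, starts on the other side of a stretch of 1110 bp. The summit was 545 bp upstream of CLN2 and 566 bp upstream of BBP1 in wild type, 548 and 563 bp in swr1Δ, 541 and 570 bp in yaf9Δ, and 496 and 615 bp in eaf1Δ. The peak overlapped the 500 bp upstream of both genes, and to which of them it belongs cannot be told apart from position. Its summit fell inside the 500 bp upstream of CLN2 in eaf1Δ only.

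CLN1, the close relative of CLN2, had a broad peak further from its start. The summit lay 781 bp upstream in wild type and yaf9Δ, 795 bp in swr1Δ and 724 bp in eaf1Δ. In wild type the peak (chromosome XIII, 661443–662348) had a fold of 2.04 (1.80–2.30) and rank 202, a lower fold and a later rank than CLN2 and PCL1. In yaf9Δ its fold was 4.24 (3.84–4.66) with rank 146, in eaf1Δ 2.61 (2.33–2.91) with rank 211, and in swr1Δ 3.57 (3.24–3.93) with rank 177. In all 4 lists the interval of CLN1 lay below that of CLN2. The peak covered 906 bp in wild type and 948 to 970 bp in the mutants, and in each list its far end overlapped CIK1, a kinesin-associated protein gene that lies 1114 bp upstream.

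CLN3, whose product acts before the other G1 cyclins, had another pattern, with peaks in its body and none in wild type. In eaf1Δ a peak over the start (chromosome I, 66686–67634) had its summit 100 bp inside the gene, with a fold of 2.47 (2.29–2.67) and rank 72 of 2937. That was the best rank of any cyclin gene in eaf1Δ, from 642 fragments over a local background of 259, which was also the highest background of any peak counted here at a cyclin gene in that list. In yaf9Δ a peak at the same place had its summit 98 bp inside (fold 2.16, 1.96–2.38, rank 467), and a second one 664 bp inside (2.04, 1.82–2.27). No peak lay over the start in swr1Δ. Near the 3′ end of CLN3 each mutant list had a summit, at 1392 bp from the start in swr1Δ (fold 1.55), 1425 bp in yaf9Δ (1.87) and 1432 bp in eaf1Δ (1.83). A further peak lay upstream, beyond the 500 bp, with its summit 937 bp from the start in yaf9Δ (fold 2.07) and 946 bp in swr1Δ (fold 1.91, 1.73–2.11, rank 406). In eaf1Δ a peak overlapping these had its summit 1243 bp upstream (fold 1.67, 1.5–1.85) and its near edge 941 bp upstream. All 3 overlapped CYC3, the gene of a cytochrome c heme lyase, which lies 1195 bp upstream of CLN3.

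PCL2 had the fewest peaks of the G1 genes. A single peak in yaf9Δ (chromosome IV, 234411–234683) had its summit 352 bp upstream, a fold of 1.98 (1.71–2.27) and rank 1544 of 4590. No peak was called at PCL2 in wild type, eaf1Δ or swr1Δ. At equal list length the yaf9Δ peak dropped out.

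**Figure D2:**
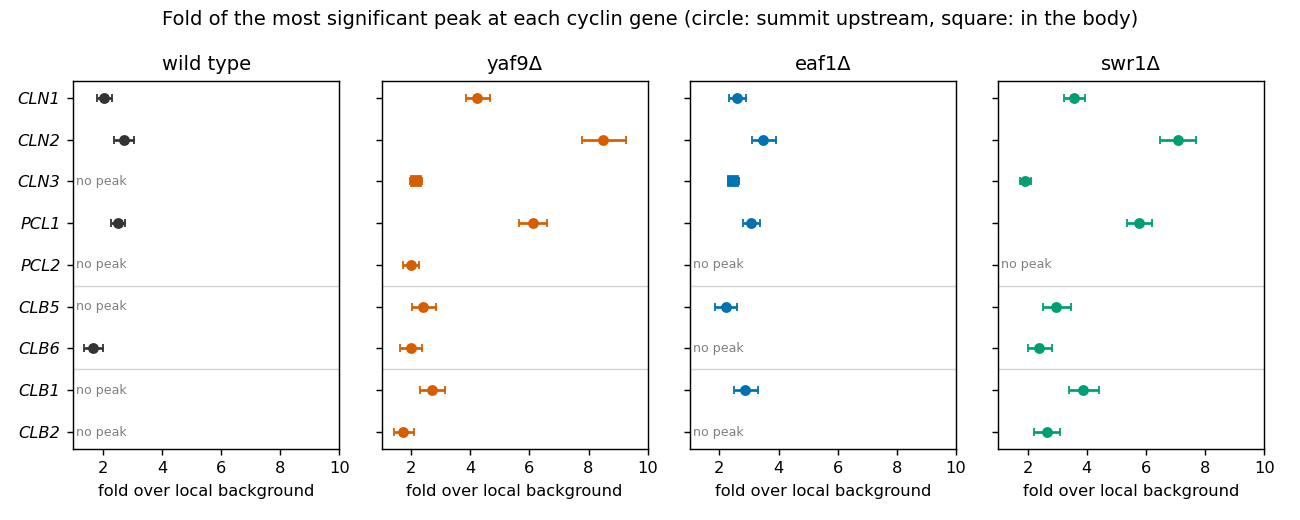
Fold over local background of the most significant peak whose summit lies in the body or at most 1000 bp upstream of each cyclin gene, in 4 panels by peak list. Circles have their summit upstream and squares in the gene body, bars are 95% Poisson intervals of the pileup, and grey lines part G1, S-phase and mitotic cyclins. CLN2 is highest in each panel, from 2.71 in wild type to 8.5 in yaf9Δ. CLB1 is the highest of the CLB genes wherever it has a peak, but its interval overlaps that of CLB5 in each of those lists.

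The S-phase genes CLB5 and CLB6 had peaks next to tRNA genes, of lower fold than those of CLN2 and PCL1 in each list where both were called. At CLB5 the summit lay 353 bp upstream in swr1Δ, 346 bp in yaf9Δ and 345 bp in eaf1Δ. Its fold was 2.96 (2.53–3.45) in swr1Δ, 2.41 (2.04–2.83) in yaf9Δ and 2.21 (1.86–2.60) in eaf1Δ, and wild type had no peak. The swr1Δ peak (chromosome XVI, 775418–775849) rested on 163 fragments over 54.4 and had rank 397 of 1262. The tRNA gene YNCP0018C lies 582 bp upstream of CLB5, and the peaks of yaf9Δ and swr1Δ reached it, while that of eaf1Δ did not. All 3 summits lay between the tRNA gene and CLB5.

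CLB6 was the only CLB gene with a wild-type peak by the 500 bp rule, and the weakest of the 4 cyclin genes that had one. The wild-type peak (chromosome VII, 706756–707186) had a fold of 1.66 (1.35–2.01), from 99 fragments over 59.4, a −log10 q of 4.40 and rank 511 of 625. Its summit lay 361 bp upstream, and that of the yaf9Δ peak (fold 1.98, 1.64–2.37) 368 bp upstream. In swr1Δ the fold was 2.38 (2.0–2.83), but the summit stood 658 bp upstream, inside the tRNA gene YNCG0030C, which lies 606 bp upstream and was overlapped by the peak in all 3 lists. No peak was called at CLB6 in eaf1Δ. Ty element genes, YGR109W-A and YGR109W-B, lie beyond the tRNA gene, and reads from such repeated sequence can be shared between copies, so the CLB6 peaks are uncertain.

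The mitotic genes CLB1 and CLB2 had peaks that stopped just short of the 500 bp window. The CLB1 peak ended 510 bp upstream of the start in swr1Δ, 533 bp in yaf9Δ and 551 bp in eaf1Δ, and its summit lay 690, 701 and 725 bp upstream. In swr1Δ the CLB1 peak (chromosome VII, 702766–703126) had a fold of 3.88 (3.39–4.42), from 222 fragments over 56.5, with rank 268 of 1262. That fold was the third of the 9 genes in swr1Δ, where its interval overlapped those of CLN1 and CLB5 and lay above those of CLB2 and CLB6. It rested on a background near the lowest of the swr1Δ list, 54.4, which CLB2, CLB5 and CLB6 had. CLN1 had 428 fragments over 119 there. In yaf9Δ the CLB1 fold was 2.69 (2.29–3.13) with rank 851, and in eaf1Δ 2.88 (2.48–3.32) with rank 384. The CLB1 background equalled the lowest of the list in both, 59.6 in yaf9Δ and 64.3 in eaf1Δ. CLB2 had a summit 650 bp upstream in yaf9Δ (fold 1.73, 1.42–2.10, rank 3883 of 4590) and 674 bp upstream in swr1Δ (2.64, 2.23–3.10, rank 449). Its near edges were 555 and 534 bp upstream. Neither gene had a wild-type peak within 1000 bp of its start, and CLB2 had none in eaf1Δ.

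CLB1 also had a strong peak 2900 bp upstream in wild type, with a fold of 2.87 (2.57–3.2). It stood at the tRNA gene YNCG0028W in all 4 lists. CLB2 likewise had one 2353 bp upstream in swr1Δ, at the tRNA gene YNCP0017C, with a fold of 3.11 (2.66–3.61). These lie far from the cyclin genes and are not counted as theirs.

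With a window of 1000 bp upstream, 4 of 9 cyclin genes had a peak in wild type (19.5% of all genes), 8 in swr1Δ (31.0%), 9 in yaf9Δ (71.7%) and 6 in eaf1Δ (58.6%). Both mitotic genes then had one in yaf9Δ and swr1Δ, CLB1 had one in eaf1Δ, and wild type still had 0 of 2. The missing gene in swr1Δ was PCL2. In swr1Δ peaks at cyclin genes were thus spread over G1, S-phase and mitotic members.

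**Figure D3:**
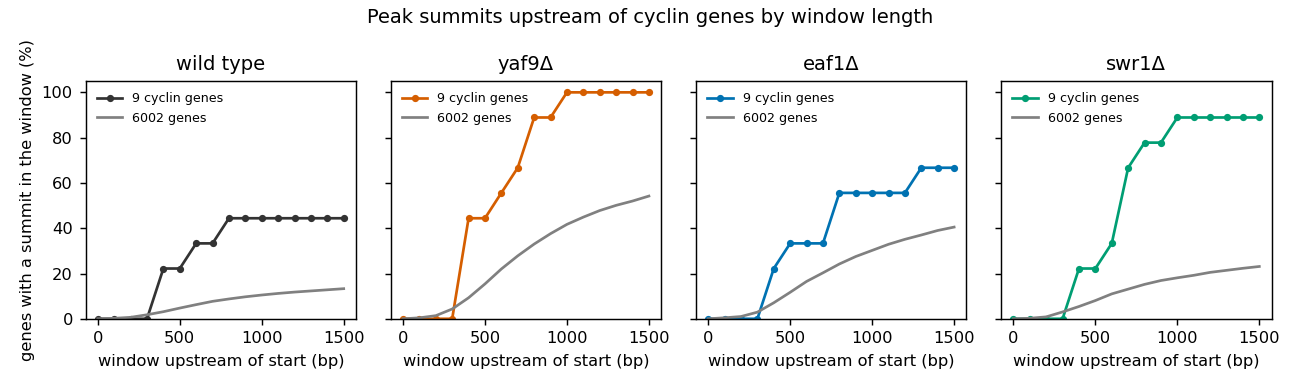
Percentage of genes with at least 1 peak summit in a window upstream of the start, against the length of the window in bp, in 4 panels by peak list. Coloured lines with points are the 9 cyclin genes and grey lines all 6002 nuclear protein-coding genes, for which longer windows also take in neighbouring genes. With 300 bp no cyclin gene has a summit in any list, beside 1.78% to 4.32% of all genes. With 1000 bp it is 44.4% of them in wild type (10.5% of all genes) and 88.9% in swr1Δ (18.1%). It is all of them in yaf9Δ (41.7%) and 55.6% in eaf1Δ (30.2%).

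The upstream summits lay well away from the start of the cyclin genes. Within 500 bp upstream a summit was found for 2 of 9 cyclin genes in wild type (4.73% of all genes), 2 in swr1Δ (8.06%), 4 in yaf9Δ (15.4%) and 3 in eaf1Δ (11.7%). Those of PCL1, PCL2 and CLB5 fell between 333 and 353 bp from the start wherever they were called, and those of CLB1, CLB2 and CLN1 between 650 and 795 bp. Over the lists with a summit at most 1000 bp upstream, that summit moved by 8 bp at CLB5, 24 bp at CLB2, 35 bp at CLB1, 52 bp at CLN2 and 71 bp at CLN1. At CLN3 it moved by 9 bp between yaf9Δ and swr1Δ, while the eaf1Δ summit lay further out, at 1243 bp. At CLB6 it moved by 297 bp, the distance between the stretch before the gene and the tRNA gene.

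Among the 9 genes, summits in the gene body were found at G1 cyclins, a difference between classes that was not tested. In yaf9Δ they were found at CLN1, CLN2, CLN3 and PCL1, 4 of 9 genes beside 48.8% of all genes. The body peaks of CLN1 (fold 1.86), CLN2 (1.74 and 1.57) and PCL1 (1.41) were weaker than the upstream peak of the same gene. In eaf1Δ and swr1Δ the 1 gene of the 9 with a body summit was CLN3, beside 34.9% and 11.6% of all genes. In wild type it was 0 of 9 beside 6.55%. The 4 CLB genes, which stand in 2 convergent pairs, had no summit in their bodies in any list. CLB3, a further B-type cyclin gene outside the 9, had one 127 bp inside its body in yaf9Δ. CLB1 faces CLB6 across 307 bp and CLB2 faces CLB5 across 746 bp.

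**Figure D4:**
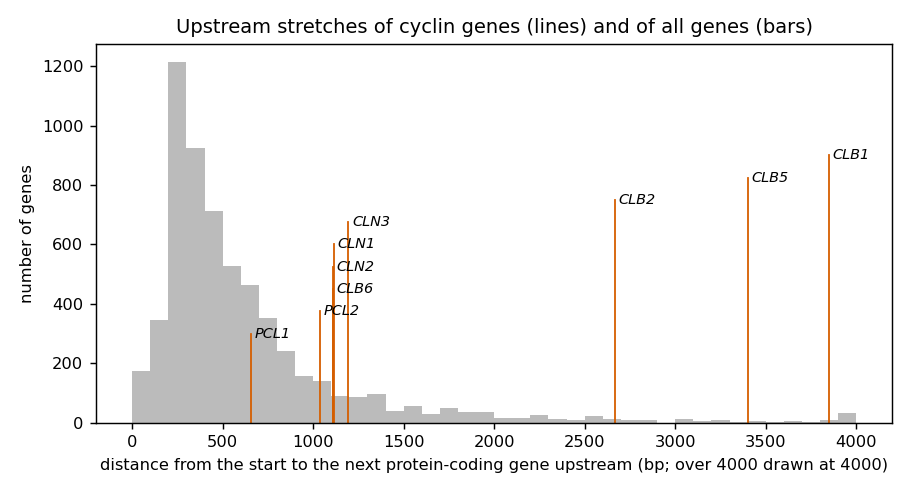
Distance in bp from the start of a gene to the next protein-coding gene upstream, as numbers of genes in bins of 100 bp (grey bars, genes over 4000 bp in the last bin), with a line at the distance of each cyclin gene. The heights of the lines only part the labels. PCL1 at 656 bp is the nearest to its neighbour, and CLB2 at 2665 bp, CLB5 at 3400 bp and CLB1 at 3849 bp are the furthest.

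These 9 cyclin genes have long stretches upstream, a property that did not enter their choice. Other cyclin genes do not all share it. The next protein-coding gene lies 286 bp upstream of CLB3 and 368 bp upstream of PCL10. The distance to the next protein-coding gene upstream had a median of 1114 bp over the 9 genes, beside 448 bp over the 5993 genes with such a neighbour. It was over 1000 bp at 8 of the 9, all except PCL1, and at 886 of all genes (14.8%). A longer stretch leaves more room for a peak, so the cyclins were also set beside those 886 genes. A summit at most 1000 bp upstream and before the next coding gene was found in wild type at 3 of the 8 long-stretch cyclin genes and 15.0% of the 886. It was 8 of 8 beside 36.5% in yaf9Δ, 4 of 8 beside 27.5% in eaf1Δ and 7 of 8 beside 28.1% in swr1Δ. CLB6, whose peaks are uncertain, is counted in wild type, yaf9Δ and swr1Δ, and its swr1Δ summit lies inside a tRNA gene. Over the long-stretch genes with such a summit its median distance was 613 bp in wild type and 584 bp in swr1Δ, with quartiles of 443 and 740 bp in swr1Δ. The upstream summits of CLN2, CLB6, CLB1 and CLB2 in swr1Δ lie within these quartiles, those of CLN1 and CLN3 lie further out and that of CLB5 nearer to the start.

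Other cyclin genes were also among those with a peak in wild type. Of 10 other cyclin genes 3 had a peak in wild type, namely PCL10 (fold 1.76), PCL8 (1.66) and PCL7 (1.45), which encode further partners of Pho85, beside 16.6% of all genes. Their summits lay 768, 703 and 728 bp upstream, beyond the 500 bp. At PCL10 the next protein-coding gene lies 368 bp upstream, nearer than the summit. At CLN1 that distance is 1114 bp, further than the summit. In swr1Δ it was 2 of 10, CLB3 (fold 1.64), another B-type cyclin, and PCL5 (1.47). In yaf9Δ it was 6 of 10, led by PCL5 (2.69), and in eaf1Δ 3 of 10, led by PCL7 (2.15). Among 10 genes for the kinases and their regulators, CKS1, the small subunit that binds the kinase Cdc28, was the 1 with a wild-type peak (fold 1.85), and 8, 5 and 2 had one in yaf9Δ, eaf1Δ and swr1Δ. Of all genes, 64.2% had a peak in yaf9Δ, 51.6% in eaf1Δ, 26.3% in swr1Δ and 16.6% in wild type, and with 10 genes a list these counts say little about the lists.

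The listed genes for transcriptional control of the cell cycle had no wild-type peak, beside 16.6% of all genes. Of 10 genes of G1/S transcription, 0 had one in wild type, 3 in swr1Δ (26.3% of all genes), 8 in yaf9Δ (64.2%) and 6 in eaf1Δ (51.6%). XBP1, which encodes a repressor, led them in eaf1Δ (fold 3.28) and swr1Δ (2.03). Of 9 genes of G2/M and M/G1 transcription, 0 had a peak in wild type, 4 in swr1Δ, 8 in yaf9Δ and 5 in eaf1Δ, beside the same shares. YHP1, a repressor of M/G1 genes, led them in yaf9Δ (fold 3.84) and swr1Δ (4.24), with its summit 320 and 314 bp upstream. Of 10 other targets of SBF and MBF, 0 had a wild-type peak, and 8, 5 and 2 had one in yaf9Δ, eaf1Δ and swr1Δ, again beside those shares. Among the cyclin genes CLN1, CLN2, PCL1 and CLB6 had wild-type peaks, and CLN3, PCL2, CLB5, CLB1 and CLB2 had none. None of these 10 listed targets had one, beside 16.6% of all genes. No test was made of that difference.

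PCL1 had the highest mean rank percentile of the 9 genes over the 4 lists (94.6, with 100 for the first peak of a list and 0 for a gene without one), followed by CLN2 (92.3) and CLN1 (85.9). The genes most like PCL1, by the smallest sum of absolute differences in rank percentile over the 4 lists, were GIC2 (sum 5.04), which encodes an effector of the GTPase Cdc42, and CWP2 with YKL097C (5.98 each), which share a peak. CWP2 encodes a cell wall mannoprotein. GIC2 had folds of 3.13 in wild type, 7.69 in swr1Δ, 7.51 in yaf9Δ and 4.51 in eaf1Δ, each above that of PCL1 in the same list. CWP2 had 2.35 in wild type and 1.82 in eaf1Δ, below PCL1 (2.50 and 3.07). Its folds of 5.93 in swr1Δ and 6.36 in yaf9Δ were above those of PCL1 (5.77 and 6.12). The likeness is thus one of rank and not of fold.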

How the data were processed

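Swc4-13myc was mapped by ChIP-seq in 10 samples, 5 groups of 2 repeats. Per the submitters' processing notes, reads were processed with fastp 0.21.0, BWA 0.7.15-r1140, SAMtools 1.4 and MACS2, and per the labels each of the 4 deposited lists integrates both repeats of a group. Build, control, settings and read depth were not given in the sources used here. Each deposited peak carries a fold (ratio of pileup to local background), −log10 p, −log10 q and a score, and the score was left aside. Peaks were ranked by −log10 q.

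Genes came from the R64 table, with strand from the systematic name. As a check of the build, a summit lay within 60 bp of the middle of 34, 114, 76 and 112 of 275 tRNA genes (wild type, yaf9Δ, eaf1Δ, swr1Δ), and of 4, 3, 4 and 3 after a shift of 500 bp. Coordinates are those of the peaks. Distances assume R64.

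As a measure of depth, pileup and background were solved from fold and −log10 p (up to 600) with the Poisson formula of MACS2, and the pileup was whole within 0.05 at 97.8% to 99.8% of solved summits. In simulated data 200 of 200 pileups and 200 of 200 placed peaks were recovered. Read duplicates and the choice of the summit are not in the Poisson intervals.

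Members and lists were chosen with earlier results of these data known. All members were named, with up to 4 genes of each other list by fold and the 3 genes nearest in rank percentile to the leading member. Alternatives took peaks with −log10 q from 5 upward or fold from 2 upward, lists shortened to 625 peaks, 250 and 1000 bp upstream, summits in place of overlap, 50% of the peak and, chosen after seeing the data, the stretch to the next coding gene. Python 3.11.15, pandas 2.3.3 and SciPy 1.17.1 were used. The values of 1 gene of the lists are not reported here.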

Additional observations from a re-analysis of the deposited data

How the results depend on the processing

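No paired analysis was possible because each list pools both repeats of its group. Values without 1 repeat were therefore not computed. Counts below are cyclin genes, and 118 of the 164 alternative counts stayed within 1.5 times of the reported one. Part of these 118 could not move. Stricter settings cannot raise the 0 of the mitotic genes, and at equal list length the wild-type list of 625 peaks was unchanged. Counts by class also repeat genes of the count over all 9. The share of all 6002 genes with a peak or summit under the same setting stands in brackets. With −log10 q of at least 5, 0 S-phase genes (13.5%) and 1 upstream summit (4.18%) were left in wild type. With fold of at least 2 it was 0 (4.93%) and 1 (2.52%) in wild type. In yaf9Δ it was 1 S-phase gene (31.4%), 2 upstream summits (8.65%) and 1 body summit (17.1%), and in swr1Δ 0 body summits (1.27%). At equal list length yaf9Δ had 4 genes with a peak (13.9%), 0 S-phase genes, 1 upstream summit (4.93%) and 1 body summit (4.25%). There were 0 S-phase genes in eaf1Δ (14.0%) and 0 body summits in swr1Δ (2.77%).

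With 250 bp upstream, wild type had 1 gene with a peak (12.6%), which was 1 G1 and 0 S-phase genes. There were 2 G1 genes in swr1Δ (19.6%). Each list had 0 upstream summits (1.23% in wild type, 1.98% in swr1Δ, 2.73% in yaf9Δ and 1.87% in eaf1Δ). With 1000 bp, mitotic genes with a peak numbered 2 in swr1Δ (31.0%), 2 in yaf9Δ (71.7%) and 1 in eaf1Δ (58.6%). Upstream summits numbered 4 in wild type (10.5%), 8 in swr1Δ (18.1%), 9 in yaf9Δ (41.7%) and 5 in eaf1Δ (30.2%). The stretch up to the next coding gene was an alternative chosen after seeing the data. Mitotic genes then numbered 1 in wild type (17.0%), which was CLB1, through the tRNA gene. They numbered 2 in swr1Δ (26.2%), 2 in yaf9Δ (63.1%) and 1 in eaf1Δ (51.6%). Upstream summits in the same order of lists numbered 5 (5.7%), 8 (11.5%), 9 (15.1%) and 5 (10.8%).

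Counted by summits in the window, wild type had 2 genes (11.0%), 1 of them G1, and swr1Δ had 3 (18.9%), with 2 G1 and 1 S-phase. When 50% of the peak had to lie in the window, eaf1Δ had 3 genes (42.4%), 2 of them G1. There were also 3 in swr1Δ (18.8%), 1 of them G1. At CLN1, CLN2 and PCL1 the upstream peak straddles the edge of the 500 bp. PCL1 was among the genes lost in eaf1Δ and swr1Δ when 50% of the peak was required. The number of peaks in a list and the depth of its reads cannot be told apart from genotype.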
